A study of Mus musculus with 6 samples.

Results

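Glycolysis and tricarboxylic acid (TCA) cycle genes were followed in sorted mouse cone photoreceptors. Knockout cones, of a genotype meant to remove the clock factor BMAL1, were set beside control cones. The genes were taken from a fixed list of 43, of which 42 had values among the 9720 protein-coding genes measured. They fall into 22 glycolysis genes, from hexokinase to the kinases that restrain pyruvate dehydrogenase, and 20 genes of pyruvate dehydrogenase, the TCA cycle and the shuttles that serve it. Slc16a3 was not analysed here.

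RNA was profiled in 3 knockout and 3 control libraries, each from 100 ng of RNA of eGFP-positive cells that had been sorted from dissociated neural retinas of adult mice on a mixed C57BL/6 background. Knockout mice had the genotype HRGPcre;Bmal1f/f;Z/EG, with both copies of Bmal1 floxed. Control mice had the genotype HRGPcre;Bmal1f/+;Z/EG, so they carried the same Cre transgene and reporter and 1 floxed copy, and their cones keep 1 intact copy after recombination. HRGPcre expresses Cre in cones from the human red/green pigment promoter, and Z/EG turns on eGFP after Cre has acted. The age was labelled both as 60 to 80 days and as 2 to 6 months, under 12 h of light and 12 h of darkness. At what time of day the retinas were taken is not stated in the sources used here, so a difference in it between the groups cannot be told apart from the genotype. Nothing in the labels says whether a library came from 1 animal or several, and p-values therefore reflect the spread among these libraries alone, part of which may be technical.

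Glycolysis turns glucose into pyruvate in the cytosol. Photoreceptors are known for converting much of their glucose to lactate even when oxygen is present, with hexokinase 2, the M type of pyruvate kinase and lactate dehydrogenase A as characteristic enzymes. Pyruvate that is not turned into lactate enters the mitochondrion, where pyruvate dehydrogenase makes the acetyl-CoA that the TCA cycle oxidises. BMAL1 pairs with CLOCK and binds E-box elements in DNA, and metabolic genes are among the rhythmic genes of many tissues.

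Values are FPKM (length- and library-scaled fragment counts, so levels can be set side by side between genes) and are given for libraries 1, 2 and 3 of a group in that order. The read depth is unknown. Control 1 stood apart, with a mean correlation of 0.90 to the other libraries across genes, against 0.93 to 0.95 for the other 5. FPKM sums over the table ranged from 102059 to 106900 in knockout and from 84995 to 128773 in control. Arntl, the gene that encodes BMAL1, read 3.37, 2.28 and 3.48 FPKM in knockout, against 2.9998, 2.60 and 3.27 FPKM in control. Its groups overlapped, and since the value covers the whole gene it does not check the genotype labels. The 14 cone markers fixed for the check were all found, and none passed the limma test described below. Of their log2 differences 8 were negative and 6 positive, with a median of -0.048, and they ran from -0.76 for Guca1a to 1.01 for Opn1sw. Guca1a averaged 254 ± 112 FPKM in knockout and 414 ± 94.1 FPKM in control, and Opn1sw averaged 1947 ± 160.3 FPKM in knockout and 981 ± 235 FPKM in control. The sum of the 14 markers was 6292 to 7313 FPKM in knockout and 4450 to 7526 FPKM in control. Of 15 rod markers 14 were found, with sums of 2565 to 3618 FPKM in knockout and 3008 to 3689 FPKM in control, so rod RNA was present in every library. The log2 differences of the rod markers were negative for 4 and positive for 10, with a median of 0.11, and none passed. For 3 of them, Cnga1, Reep6 and Nr2e3, every knockout library lay above every control library. Sums of the 9 Müller glia markers found of 13 were 103 to 112 FPKM in knockout and 93.0 to 122 FPKM in control. Car2 made up much of these sums, averaging 60.8 FPKM in knockout and 54.3 FPKM in control. For Apoe and Clu every knockout library lay below every control library (log2 differences -0.62 and -0.47), and neither passed. Of the 7 tested, 4 differences were negative and 3 positive, with a median of -0.042. Sums of the 9 bipolar cell markers found of 11 were 93.6 to 108 FPKM in knockout and 84.3 to 118 FPKM in control. Among them Gng13 also lay below control in every knockout library (log2 difference -0.89) without passing, and 3 of the 6 tested were positive. Of 19 inner retinal neuron markers 5 were found, summing to 7.32 to 10.3 FPKM in knockout and 11.9 to 35.2 FPKM in control, with the top value in control 1. Of 15 markers of blood, microglia, vessels, pigment epithelium and astrocytes 3 were found, summing to 4.47 to 6.63 FPKM in knockout and 2.48 to 5.05 FPKM in control. In bulk samples, fewer cells of a type and less RNA per cell cannot be told apart. The part of rods and other cells in the values below was not tested.

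Because BMAL1 binds the E-box CACGTG, the promoters of the members were searched for these letters, which read the same on both strands. The windows ran from 250 bases before to 50 after a RefSeq gene start (GRCm38.p6), and 40 of the 42 members had at least 1. Windows for Bsg and Idh3a were not matched. CACGTG lay in a window of 4 of the 40 members, or 10%, against 8.09% of the 27025 genes with a window and 12.6% of the 6676 genes tested here that had one. The 4 members were Pfkm, Ldha, Slc16a1 and Ogdh. A gene was counted if any of its windows held the letters, and Pfkm, Ldha and Ogdh also had windows at other starts without them. The windows with the letters are shown, or for Ogdh the first of 3, on the plus strand with the E-box in capitals.
Pfkm, chr15:98092339-98092638: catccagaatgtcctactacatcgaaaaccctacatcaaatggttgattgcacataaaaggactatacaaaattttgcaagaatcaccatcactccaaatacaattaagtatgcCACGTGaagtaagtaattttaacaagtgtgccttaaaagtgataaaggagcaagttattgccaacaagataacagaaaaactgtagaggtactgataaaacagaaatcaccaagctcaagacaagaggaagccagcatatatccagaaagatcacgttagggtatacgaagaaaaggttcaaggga
Ldha, chr7:46845554-46845853: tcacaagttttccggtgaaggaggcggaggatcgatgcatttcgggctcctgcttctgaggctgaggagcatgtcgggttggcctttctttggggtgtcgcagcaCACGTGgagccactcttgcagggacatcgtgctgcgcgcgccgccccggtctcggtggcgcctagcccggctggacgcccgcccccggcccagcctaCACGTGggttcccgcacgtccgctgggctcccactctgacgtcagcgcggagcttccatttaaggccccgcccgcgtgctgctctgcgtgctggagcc
Slc16a1, chr3:104638414-104638713: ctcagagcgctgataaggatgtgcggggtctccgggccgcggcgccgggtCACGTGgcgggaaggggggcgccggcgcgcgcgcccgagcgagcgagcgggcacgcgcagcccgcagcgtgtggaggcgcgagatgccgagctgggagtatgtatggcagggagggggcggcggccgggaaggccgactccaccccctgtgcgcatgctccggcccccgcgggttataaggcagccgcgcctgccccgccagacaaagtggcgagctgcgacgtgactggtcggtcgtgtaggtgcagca
Ogdh, chr11:6291920-6292219: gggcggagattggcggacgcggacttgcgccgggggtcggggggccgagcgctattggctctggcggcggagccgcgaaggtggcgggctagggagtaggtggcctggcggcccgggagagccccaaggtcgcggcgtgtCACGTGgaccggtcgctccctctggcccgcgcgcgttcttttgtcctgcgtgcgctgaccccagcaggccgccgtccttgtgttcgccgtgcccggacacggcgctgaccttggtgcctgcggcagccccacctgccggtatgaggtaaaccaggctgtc
The letters lay at both 145 and 48 bases before the start used for the Ldha window. They lay at 200 bases for Slc16a1, 136 for Pfkm and 110 for this Ogdh window. A match is a description of the letters and not a binding site. These 4 members had log2 differences between knockout and control from -0.31 to 0.041, with a median of -0.097, and the 35 tested members with a window and no match had a median of -0.072.

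Knockout cones were compared with control cones to ask which transcripts of cones depend on Bmal1. No member of the 41 tested reached an adjusted p under 0.05 in limma, in either direction. Over all 8627 genes tested 9 passed, which is 0.104%, so a count of 0 lies where this background puts it. An unadjusted p under 0.05 was reached by 2 members, Pfkl and Bsg, against 5.49% of all genes. The values of the groups did not overlap for Bsg and Hk2 among the 41, against 9.39% of all genes. Differences are on a log2(FPKM + 1) scale, where those of weakly expressed genes come out too small. The glycolysis members had a median difference of -0.17, with 17 of 21 negative, against a median of -0.016 and 52.6% negative over all genes tested. The pyruvate dehydrogenase, TCA and shuttle members had a median of -0.014, with 13 of 20 negative. The 95% intervals, which are not adjusted for the number of genes, had a median width to either side of 0.65 for glycolysis and 0.57 for the other members. Passing over all genes took larger differences than this with 3 libraries per group. Bsg at -0.90 and Pfkl at -0.79 did not pass.

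**Figure D1:**
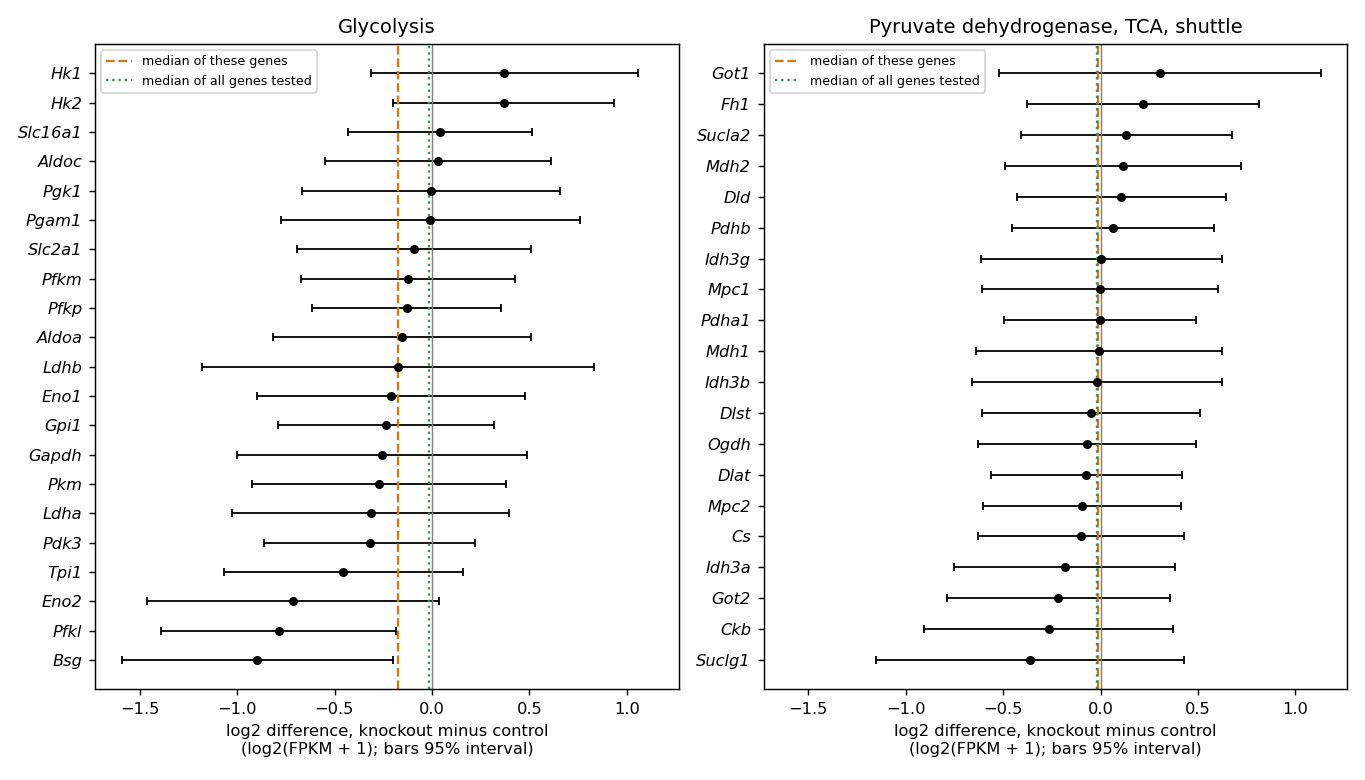
Log2 difference of each tested member, knockout minus control, with its 95% interval from limma, for the 21 glycolysis genes and the 20 other members. The intervals of Bsg and Pfkl lie below 0 and the other 39 span it; dashed lines mark the median of each list and dotted lines the median of all genes tested.

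The control libraries differed widely among themselves. Control 1 held the lowest value of the 6 libraries for 26 of the 42 members, and control 2 or control 3 held the highest for 34. Control 1 lay below the mean of the 6 libraries by a median of 0.39 over the glycolysis members and 0.42 over the others on the log2 scale, against 0.16 over all genes. Control 3 lay above it by 0.37, 0.28 and 0.19 in the same order. Knockout 2 lay below it by 0.25 over the glycolysis members and by 0.049 over the others, against 0.042 over all genes. Knockout 1 held the lowest value for 6 of the 21 glycolysis members tested, Bsg, Pfkl and Eno2 among them. Over all genes it did so for 1674 of 8627. Without control 1 the glycolysis median became -0.41, with 20 of 21 negative, and the median of the other members -0.25, with 18 of 20 negative, while that of all genes moved to -0.0995. Without control 2 the medians were -0.082 and 0.020, with -0.026 over all genes. Without control 3 they were -0.042 and 0.097, with 0.076 over all genes. No member passed an adjusted p of 0.05 without any of these libraries. The larger SD was in control for 34 of the 42 members. A gene model, Gm17364, held 10.03% of the FPKM sum of control 3, and the top gene of each remaining library held between 1.49% and 2.88%.

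**Figure D2:**
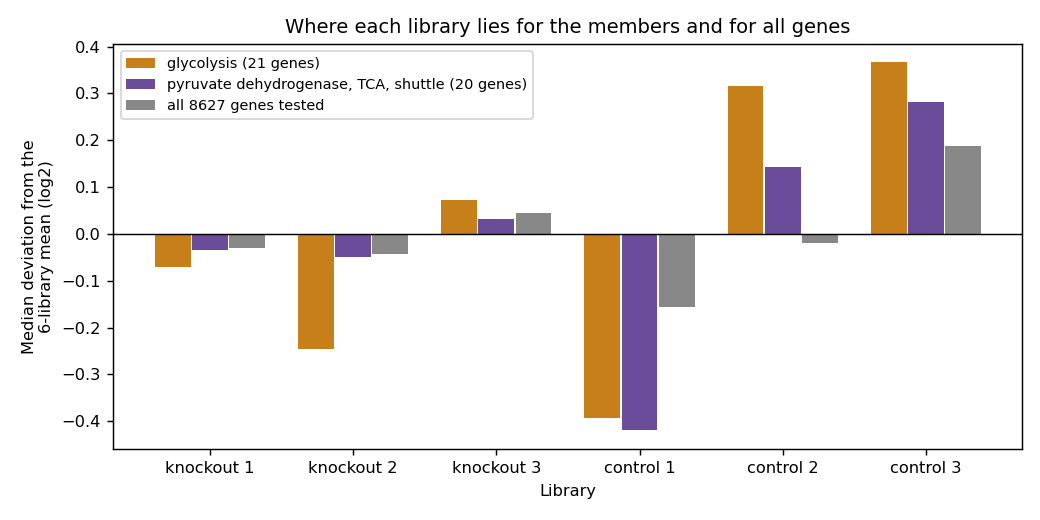
Median deviation of each library from the mean of the 6 libraries, on the scale of log2(FPKM + 1), for the 21 glycolysis genes, the 20 other members and all 8627 genes tested. Control 1 lies lowest in all 3 sets (-0.39, -0.42 and -0.16), and control 3 highest (0.37, 0.28 and 0.19).

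Glycolysis genes were abundant in the sorted cone libraries of either genotype, which also held rod RNA. The median level over the 6 libraries was 31.4 FPKM for the glycolysis genes and 15.05 FPKM for the other members. It was 18.9 FPKM for all 42 members, against 3.79 FPKM over the table. The 22 glycolysis genes summed to 1597 ± 219 FPKM in knockout and 1852 ± 531 FPKM in control (SD, n = 3 each), or 1.54% ± 0.17 and 1.72% ± 0.27 of the table's sum. Their libraries gave 1432, 1512 and 1845 FPKM in knockout, against 1239.98, 2124 and 2193 FPKM in control, so the groups overlapped and control 1 was the lowest of all.

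**Figure D3:**
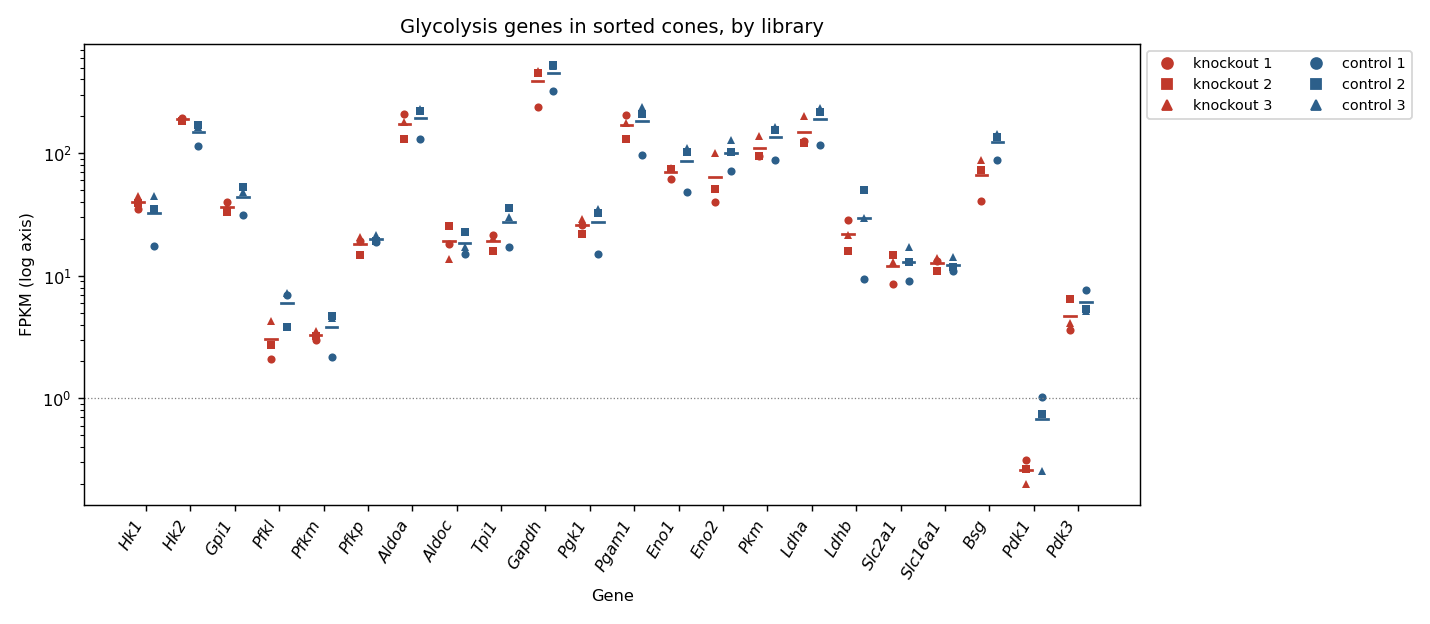
FPKM of the 22 glycolysis genes on a log axis, with each knockout library (red) left of each control library (blue) and short lines at the group means. Gapdh is the most abundant at 386 FPKM in knockout and 453 FPKM in control, and Pdk1 lies mostly below the dotted line at 1 FPKM.

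Glucose enters photoreceptors through facilitative transporters, and Slc2a1 encodes the main one. Slc2a1 read 8.54, 14.7 and 12.9 FPKM in knockout, against 9.06, 12.8 and 17.2 FPKM in control. The groups overlapped (log2 difference -0.093 ± 0.28 SE, adjusted p = 0.9996, limma).

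Hexokinase traps glucose as glucose-6-phosphate. Hk2, the isoenzyme associated with aerobic glycolysis, read 195, 183 and 191 FPKM in knockout, against 115, 169 and 163 FPKM in control. Every knockout library was above every control library, the nearest pair being knockout 2 and control 2. The means were 189.8 ± 6.53 FPKM in knockout and 149 ± 29.3 FPKM in control (SD, n = 3 each), with a log2 difference of 0.37 ± 0.26 SE that did not pass (adjusted p = 0.94, limma). Hk1, the more widely expressed isoenzyme, read 35.3, 38.9 and 45.03 FPKM in knockout, against 17.5, 35.1 and 44.95 FPKM in control. Control 1 was again the lowest, the other control values lay within or beside the knockout range, and Hk1 did not pass (log2 difference 0.37, adjusted p = 0.97). Without control 1 the difference of Hk1 was -0.0060 and that of Hk2 was 0.19. Hk2 is a minus-strand gene at 82725025 to 82774454 of chromosome 6 (GRCm38).

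Gpi1, which encodes glucose-6-phosphate isomerase, averaged 36.4 ± 3.31 FPKM in knockout and 43.98 ± 11.4 FPKM in control (log2 difference -0.24). Phosphofructokinase, which commits sugar to glycolysis, was among the lowest of the enzyme steps when isoenzymes were summed, at 24.5 ± 3.83 FPKM in knockout and 29.7 ± 3.16 FPKM in control, near the steps of Tpi1 and Pgk1. Its liver-type gene Pfkl read 2.11, 2.75 and 4.32 FPKM in knockout, against 7.02, 3.80 and 7.28 FPKM in control. The highest knockout value was above the lowest control value, so the groups overlapped. Pfkl averaged 3.06 ± 1.14 FPKM in knockout and 6.03 ± 1.94 FPKM in control, with a log2 difference of -0.79 ± 0.28 SE and a 95% interval from -1.39 to -0.18, which did not pass over all genes (unadjusted p = 0.015, adjusted p = 0.76, limma). Over the alternatives its adjusted p ran from 0.40 to 0.9996. Pfkm, the muscle-type gene, read 3.01, 3.20 and 3.57 FPKM in knockout, against 2.196, 4.66 and 4.51 FPKM in control. Pfkp, the platelet-type gene and the most abundant of the family, read 19.2, 14.9 and 20.6 FPKM in knockout, against 18.9, 19.2 and 21.5 FPKM in control. Both overlapped between the groups and did not pass (adjusted p = 0.9996 and 0.9996, limma). Without control 1 the difference of Pfkl was -0.67, and without knockout 1 it was -0.61. Pfkl is a minus-strand gene at 77986947 to 78010083 of chromosome 10.

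Aldolase splits the sugar into triose phosphates. Aldoa, its main gene in these cells, read 208, 130.3 and 179.6 FPKM in knockout, against 132, 223 and 228 FPKM in control. Aldoc, the brain-type gene, averaged 19.1 ± 6.0007 FPKM in knockout and 18.4 ± 3.97 FPKM in control. Tpi1, which interconverts the triose phosphates, read 21.3, 15.99 and 20.2 FPKM in knockout, against 17.02, 35.7 and 30.4 FPKM in control. Control 1 lay within the knockout range, while controls 2 and 3 lay above all knockout libraries. The log2 difference of Tpi1 was -0.46 ± 0.28 SE (adjusted p = 0.93, limma). Over single left-out libraries it ran from -0.76, without control 1, to -0.25. The log2 differences of Aldoa and Aldoc were -0.15 and 0.031.

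Gapdh, which encodes the oxidising enzyme of the pathway, was the most abundant member and ranked 18 of 9720 genes by mean level. It read 239, 450.1 and 470.2 FPKM in knockout, against 322, 525 and 511 FPKM in control. Knockout 1 stood below the other 5 libraries, and the groups overlapped (log2 difference -0.26, adjusted p = 0.9996, limma). Pgk1, a phosphoglycerate kinase gene, averaged 25.8 ± 3.60 FPKM in knockout and 27.4 ± 10.8 FPKM in control (log2 difference -0.0063). Pgam1, which encodes phosphoglycerate mutase, read 206, 130.01 and 177 FPKM in knockout, against 96.1, 209 and 240.2 FPKM in control. Control 1 was the lowest for Pgam1 and controls 2 and 3 the highest, so the knockout range lay inside the control range. The difference of Pgam1 was -0.0094 on the log2 scale. The signs of Pgk1 and Pgam1 turned positive after rescaling to equal sums and after median-ratio scaling.

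Enolase is encoded by the ubiquitous Eno1, by Eno2, the neuronal type, and by Eno3, which is not a member. Eno2 read 39.98, 51.5 and 101 FPKM in knockout, against 72.2, 102 and 127 FPKM in control. Knockouts 1 and 2 lay below all controls, and knockout 3 lay just below control 2. The mean of Eno2 was 64.04 ± 32.2 FPKM in knockout and 100.4 ± 27.6 FPKM in control, and its log2 difference of -0.71 ± 0.34 SE did not pass (adjusted p = 0.90, limma). This difference was -0.93 without control 1 and -0.44 without knockout 1. It ran from -1.09 to -0.44 over single left-out libraries. Eno1 averaged 70.6 ± 7.36 FPKM in knockout and 86.8 ± 33.99 FPKM in control (log2 difference -0.21). Pkm, the pyruvate kinase gene of photoreceptors, read 95.4, 95.04 and 139 FPKM in knockout, against 88.5, 154 and 162 FPKM in control. Its knockout values lay between control 1 and controls 2 and 3 (log2 difference -0.27, adjusted p = 0.99, limma). The files give 1 value per gene, so the M1 and M2 splice forms of Pkm were not separated.

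Ldha, which encodes the lactate dehydrogenase subunit that favours lactate formation, read 126, 120.5 and 199.7 FPKM in knockout, against 117, 217 and 232 FPKM in control. Control 1 was the lowest library and controls 2 and 3 the highest. The log2 difference of Ldha was -0.31 ± 0.33 SE (adjusted p = 0.99, limma). Ldhb, which encodes the subunit that favours pyruvate formation, read 28.6, 15.8 and 21.6 FPKM in knockout, against 9.34, 50.5 and 29.4 FPKM in control. The controls differed 5.41-fold between the lowest and highest library, and the 95% interval of the log2 difference of -0.17 ran from -1.18 to 0.83, the widest of the members.

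Lactate leaves cells through monocarboxylate transporters. Slc16a1, which encodes such a transporter, read 13.2, 11.01 and 13.9 FPKM in knockout, against 10.999, 11.7 and 14.3 FPKM in control, with all 6 values close together (log2 difference 0.041, adjusted p = 0.9996, limma). Bsg encodes basigin, the membrane partner that brings these transporters to the cell surface. It read 40.7, 73.01 and 87.3 FPKM in knockout, against 87.999, 136 and 143 FPKM in control. Every knockout library lay below every control library, with knockout 3 at 87.3 FPKM just under control 1 at 88.0 FPKM. Bsg averaged 66.99 ± 23.9 FPKM in knockout and 122 ± 29.9 FPKM in control (SD, n = 3 each), with a log2 difference of -0.90 ± 0.32 SE and a 95% interval from -1.59 to -0.20. It did not pass over all genes (unadjusted p = 0.016, adjusted p = 0.77, limma), and over the alternatives its adjusted p ran from 0.18 to 0.9996. Over single left-out libraries the log2 difference of Bsg ran from -1.12 to -0.58. The first value was without control 1, its nearest neighbour, and the second without knockout 1, its lowest library. The value covers the whole gene, so its splice forms, of which a long form is known from photoreceptors, were not separated. Bsg is a plus-strand gene at 79704491 to 79711969 of chromosome 10 (GRCm38).

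Pyruvate dehydrogenase kinases switch off pyruvate dehydrogenase and so keep pyruvate out of the mitochondrion. Pdk3 read 3.60, 6.46 and 4.09 FPKM in knockout, against 7.64, 5.35 and 5.19 FPKM in control. Its groups overlapped (log2 difference -0.32, adjusted p = 0.96, limma). Pdk1 read 0.314, 0.263 and 0.200 FPKM in knockout, against 1.02, 0.744 and 0.257 FPKM in control. It lay under the filter of a mean of 1 FPKM, so it was not tested in limma.

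Among the other members, Ckb, Got1, Mdh1 and Mdh2 had the highest mean levels. The 20 genes summed to 740 ± 37.9 FPKM in knockout and 767 ± 230 FPKM in control (SD, n = 3 each). Single libraries gave 701, 777 and 740 FPKM in knockout, against 502, 919 and 880.02 FPKM in control, so the knockout range lay inside the control range.

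**Figure D4:**
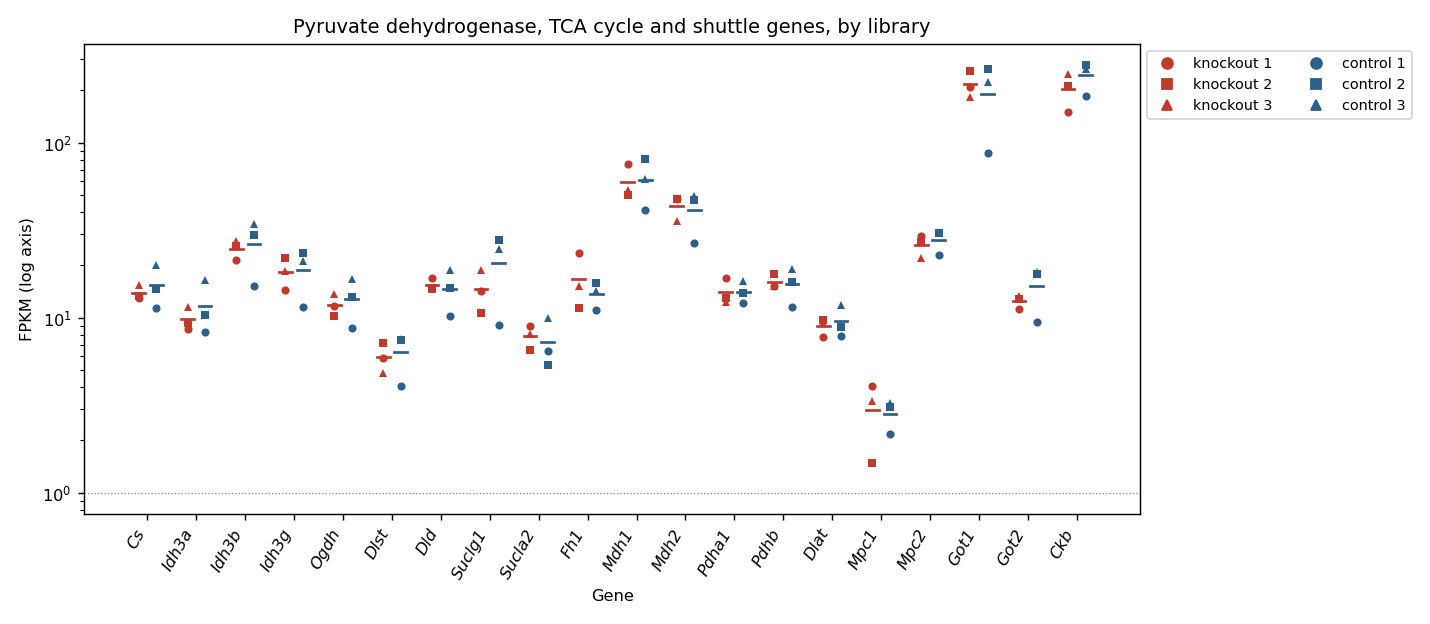
FPKM of the 20 pyruvate dehydrogenase, TCA cycle and shuttle genes on a log axis, with each knockout library (red) left of each control library (blue) and short lines at the group means. Ckb and Got1 stand highest, with means over the 6 libraries of 222 and 203 FPKM, Mpc1 stands lowest at 2.898 FPKM, and the groups overlap for all 20 genes.

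The mitochondrial pyruvate carrier is made of the Mpc1 and Mpc2 proteins. Mpc1 averaged 2.97 ± 1.34 FPKM in knockout and 2.83 ± 0.593 FPKM in control and Mpc2 25.9 ± 3.79 FPKM in knockout and 27.8 ± 4.37 FPKM in control, so the transcripts of the partners differed in level. Mpc2 read 29.2, 26.9 and 21.8 FPKM in knockout, against 22.8, 30.4 and 30.3 FPKM in control. The pyruvate dehydrogenase complex joins the E1 subunits of Pdha1 and Pdhb with the E2 core of Dlat and the E3 subunit of Dld. Pdha1, which carries the sites that the kinases phosphorylate, read 16.9, 12.9 and 12.3 FPKM in knockout, against 12.1, 13.8 and 16.1 FPKM in control. The means of Pdha1 were nearly equal, with a log2 difference of -0.0042 and a 95% interval from -0.50 to 0.49. Pdhb averaged 16.05 ± 1.53 FPKM in knockout and 15.6 ± 3.79 FPKM in control, Dlat 8.91 ± 1.02 FPKM in knockout and 9.50 ± 2.04 FPKM in control and Dld 15.4 ± 1.20 FPKM in knockout and 14.6 ± 4.20 FPKM in control. None of the 4 passed, each with an adjusted p of 0.9996 in limma.

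Cs encodes citrate synthase, the entry enzyme of the cycle. It read 13.02, 13.4 and 15.3 FPKM in knockout, against 11.3, 14.7 and 19.9 FPKM in control. Knockout libraries lay between control 1 and control 3 (log2 difference -0.098). Isocitrate dehydrogenase of the cycle has 3 subunit genes, and Idh3a, which encodes the catalytic subunit, was the lowest of them. Idh3a read 8.64, 9.27 and 11.6 FPKM in knockout, against 8.23, 10.4 and 16.3 FPKM in control. The partners averaged 24.8 ± 3.13 FPKM in knockout and 26.4 ± 10.01 FPKM in control for Idh3b and 18.2 ± 3.70 FPKM in knockout and 18.7 ± 6.36 FPKM in control for Idh3g. Idh3a had a log2 difference of -0.18, Idh3b of -0.018 and Idh3g of 0.0041.

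Ogdh encodes the E1 enzyme of the oxoglutarate dehydrogenase complex, and Dlst its E2 core. Ogdh read 11.6, 10.2 and 13.7 FPKM in knockout, against 8.68, 13.1 and 16.6 FPKM in control. Dlst averaged 5.97 ± 1.18 FPKM in knockout and 6.34 ± 1.97 FPKM in control, and the log2 differences of the pair were -0.070 and -0.050. Succinyl-CoA synthetase joins the shared subunit of Suclg1 with the ATP-forming subunit of Sucla2. Suclg1 read 14.2, 10.6 and 18.7 FPKM in knockout, against 9.06, 27.6 and 24.6 FPKM in control. It had the smallest p of the 20, with a log2 difference of -0.36 ± 0.36 SE that did not pass (adjusted p = 0.98, limma), and control 1 lay below all other libraries. Over single left-out libraries the difference of Suclg1 ran from -0.84, without control 1, to -0.084. Sucla2 averaged 7.86 ± 1.23 FPKM in knockout and 7.25 ± 2.40 FPKM in control. Fh1, which encodes fumarase, read 23.3, 11.4 and 15.1 FPKM in knockout, against 10.98, 15.8 and 14.3 FPKM in control. Knockout 1 was the highest library for Fh1 (log2 difference 0.22).

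Malate dehydrogenases and aspartate aminotransferases carry reducing power into mitochondria, with cytosolic forms from Mdh1 and Got1 and mitochondrial forms from Mdh2 and Got2. Mdh1 read 75.3, 50.4 and 53.5 FPKM in knockout, against 41.3, 80.8 and 61.9 FPKM in control. Mdh2 read 47.5, 47.6 and 35.5 FPKM in knockout, against 26.8, 46.96 and 49.6 FPKM in control. For both genes control 1 was the lowest library, and the log2 differences were -0.0088 and 0.12. Got1 read 207, 255 and 182 FPKM in knockout, against 87.2, 262 and 222 FPKM in control and ranked 38 of 9720 genes by mean level. Its knockout values lay between control 1 and control 2, with a log2 difference of 0.31 that became -0.18 without control 1 (adjusted p = 0.9996 over all libraries, limma). Got2 read 11.1, 12.8 and 13.2 FPKM in knockout, against 9.48, 17.7 and 18.2 FPKM in control, and its knockout values also lay between control 1 and the other controls (log2 difference -0.22).

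Ckb encodes the brain-type creatine kinase, which buffers ATP in the cytosol. It read 149, 211 and 247 FPKM in knockout, against 185, 276 and 265 FPKM in control and was second to Gapdh in level among the members. The groups overlapped (log2 difference -0.27 ± 0.29 SE, adjusted p = 0.99, limma).

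Within an enzyme family the share of each paralog can be read inside a library, where scaling between libraries plays no part. The sums cover only the listed members of a family. The leading gene of the hexokinase, phosphofructokinase, aldolase, lactate dehydrogenase and aminotransferase families was the same in all 6 libraries. Hk2 held most hexokinase FPKM, with Hk1 at 13.2% to 21.6%. Aldoa held 83.6% to 93.0% of the aldolase sum and Ldha 81.1% to 92.6% of the lactate dehydrogenase sum. Got1 held 90.2% to 95.2% of the aspartate aminotransferase sum, Mdh1 51.4% to 63.2% of the malate dehydrogenase sum and Suclg1 58.4% to 83.8% of its sum with Sucla2. Suclg1 and Sucla2 encode different subunits of the same enzyme, so that share does not compare paralogs. Pdk1 held 3.91% to 12.2% of its sum with Pdk3, a share that rests on Pdk1 levels under the filter of the limma test. Pdk2, which is not in that sum, averaged more than Pdk3, at 7.27 ± 1.08 FPKM in knockout and 7.68 ± 1.76 FPKM in control. Eno1 and Eno2 were closer, with Eno1 at 60.8%, 59.1% and 42.8% of their sum in knockout, against 39.9%, 49.9% and 46.6% in control. Eno3, which is not in that sum, averaged 12.01 ± 3.45 FPKM in knockout and 12.7 ± 4.98 FPKM in control.

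Among phosphofructokinases, Pfkp held 78.9%, 71.4% and 72.3% of the sum in knockout, against 67.2%, 69.4% and 64.6% in control. The groups did not overlap, and the mean difference was 7.13 percentage points (74.2% ± 4.09 in knockout and 67.1% ± 2.38 in control, SD, n = 3 each). An exact two-sided permutation test gave p = 0.1, the smallest that 3 against 3 allows, and 0.55 after adjustment over the 11 shares compared. Pfkl held 8.70%, 13.2% and 15.2% in knockout, against 24.97%, 13.7% and 21.8% in control, and these overlapped (exact permutation p = 0.2). Pfkm stood at 13.4% ± 1.67 in knockout and 12.7% ± 4.57 in control. The other 8 shares overlapped between the groups, with exact permutation p-values from 0.2 to 1.0. The annotation places 748 bases of Pfkp exons, or 5.58%, over exons of Pitrm1 on the opposite strand.

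**Figure D5:**
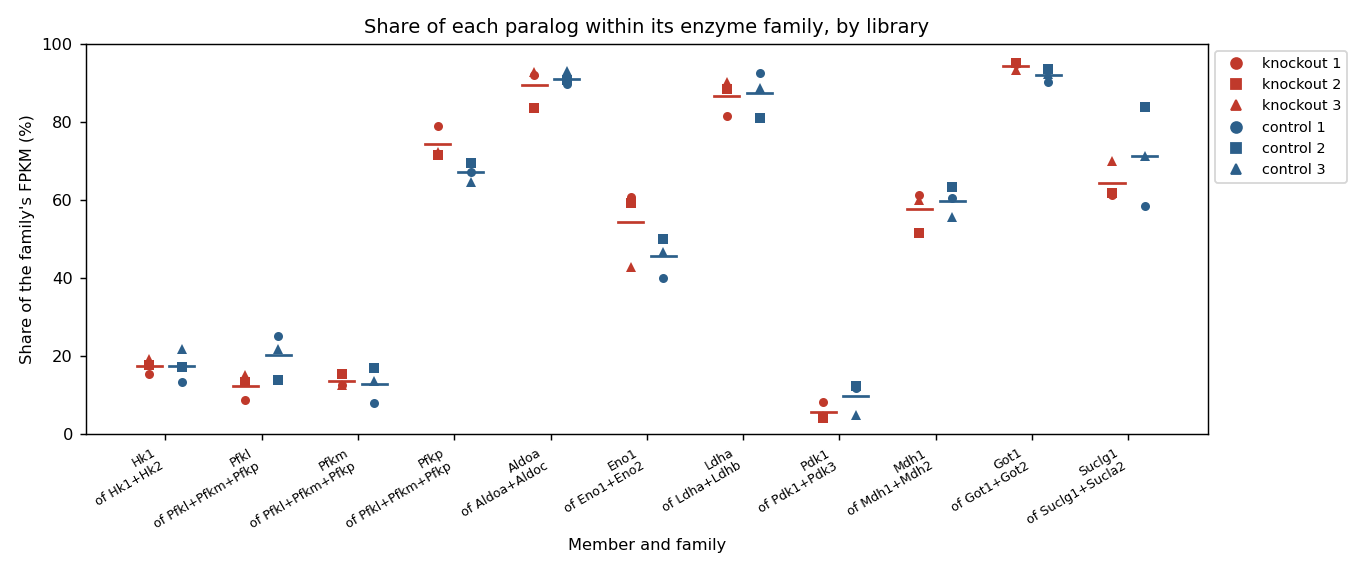
Share of each named gene in the FPKM sum of the listed members of its enzyme family, in percent. Knockout libraries (red) lie left of control libraries (blue), with short lines at the group means. Pfkp is the only share whose groups do not overlap, at 71.4% to 78.9% in knockout and 64.6% to 69.4% in control.

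Other genes of these pathways were taken from lists that extend the members, and none passed in either direction. Of 28 further glycolysis genes 10 were found and 8 tested, with 5 negative and a median log2 difference of -0.050. Pfkfb4, which makes the activator of phosphofructokinase, averaged 1.85 ± 0.302 FPKM in knockout and 1.04 ± 0.715 FPKM in control (adjusted p = 0.90, limma). Pfkfb2, its paralog, averaged 32.4 ± 5.35 FPKM in knockout and 28.5 ± 5.24 FPKM in control, and Bpgm, a bisphosphoglycerate mutase gene, 16.6 ± 2.26 FPKM in knockout and 20.5 ± 3.39 FPKM in control. Of 37 further pyruvate dehydrogenase, TCA and shuttle genes 30 were found and 27 tested, with 15 negative and a median of -0.018. Pdp2, a phosphatase gene that reactivates pyruvate dehydrogenase, read 0.231, 0.572 and 0.985 FPKM in knockout, against 2.38, 1.52 and 1.13 FPKM in control. The mean of Pdp2 was 1.14 FPKM over all libraries but 0.596 FPKM in knockout, so it entered the test only through its control values. Such entry favours a lower knockout level. Its groups did not overlap, and it did not pass (log2 difference -0.75 ± 0.26 SE, adjusted p = 0.76, limma). Slc25a10, the mitochondrial dicarboxylate carrier gene, averaged 1.28 ± 0.316 FPKM in knockout and 2.49 ± 0.785 FPKM in control and did not overlap either (adjusted p = 0.86, limma). Pdp2 and Slc25a10 were among 3 of the 27 tested whose groups did not overlap, against 9.39% of all genes. Slc25a12, the aspartate-glutamate carrier gene of the malate-aspartate shuttle, averaged 16.9 ± 3.33 FPKM in knockout and 12.7 ± 3.64 FPKM in control (adjusted p = 0.93, limma). The most abundant were Ckmt1, the mitochondrial creatine kinase gene, at 106 ± 13.5 FPKM in knockout and 129 ± 52.03 FPKM in control, and Acly, the ATP citrate lyase gene, at 65.9 ± 12.8 FPKM in knockout and 57.7 ± 17.5 FPKM in control.

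Some member values rest on shared sequence. Exons of 14 of the 42 members overlap exons of another annotated gene, in 13 cases on the opposite strand, and it is not stated whether the counting was strand-specific. The largest shares were 23.1% of Mpc1 exon bases with 4930506C21Rik and 16.1% of Pdha1 exon bases with Map3k15, both on the opposite strand. Aldoa, Gapdh, Pgk1, Pgam1, Ldha, Mpc1, Got2 and Ckb have named pseudogenes in the annotation, so reads may be split between copies and their levels are less certain. Only pseudogenes named after a member were counted, so copies under other names may affect further members.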

How the data were processed

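Poly(A) RNA of 6 libraries of sorted cones was sequenced paired-end with a strand-directional kit, per the labels' protocols. The deposited values are FPKM in a table with 1 column per library, and no value lies under 0.1 FPKM. Per the submitters' processing notes, the tools were HTSeq, DESeq2, Cufflinks 2.2.1 and TopHat2 2.1.0 on mm10, with no roles named. The scaling behind the FPKM and the use of strand are not given in the sources read here. Depth is unknown, so the spread between libraries is the measure of precision.

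Values were transformed as log2(FPKM + 1) without further scaling, and 8627 genes averaging 1 FPKM or more were tested (1093 lay below). Knockout was compared with control over the whole table with limma 3.58.1 in R 4.3.3 (variance trend, two-sided, Benjamini-Hochberg over all tested genes, threshold 0.05). The code was tested on simulated data. Shares were compared by exact permutation (scipy 1.17.1). GENCODE vM21 on GRCm38, the assembly of mm10, gave positions. The share of Slc16a1 in its family was left out, since Slc16a3 was not analysed. The members and lists were chosen with earlier results of these data known. Values in every library are given for the 6 members with the smallest p-values and the 5 most abundant ones of each list, for branch-point genes and for Arntl. From the further lists the 3 of smallest p and the 2 most abundant are named, and also Pdk2 and Eno3, which share a family with listed members. Alternatives covered pseudocount, filter, scaling, variance model, weights, replicate block and left-out libraries.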

Additional observations from a re-analysis of the deposited data

How the results depend on the processing

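No member passed an adjusted p of 0.05 in limma under any of the 16 alternatives, and 0 glycolysis and 0 other members passed in each. The smallest adjusted p of a member was 0.18, for Bsg with array weights. Over all genes 9 passed, 23 with array weights (11 higher and 12 lower, against 4 and 5), and 6 to 13 without single libraries. The glycolysis median ran from -0.41 to -0.042 without single libraries and was -0.36 with array weights, and the other members' median ran from -0.25 to 0.097. After median-ratio scaling the medians were -0.15 and 0.0068, with 0.0017 over all genes. Of 653 member values under alternatives 73 changed sign, in 29 of 41 members, and 12 members kept theirs. The cause was not tested.

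After rescaling to equal FPKM sums the sign turned for Pgk1 (0.018), Pgam1 (0.014), Idh3b (0.0058), Mdh1 (0.014), Pdha1 (0.018) and Mpc1 (0.018). After median-ratio scaling the sign turned for Pgk1 (0.015), Pgam1 (0.011), Idh3b (0.0025), Mdh1 (0.011), Pdha1 (0.015) and Mpc1 (0.014). After quantile normalization the sign turned for Pgk1 (0.0015) and Mpc1 (0.056). With array weights the sign turned for Aldoc (-0.075), Idh3g (-0.18), Mdh2 (-0.048) and Got1 (-0.042). Leaving out single libraries turned the sign of these log2 differences, which ran from -0.0060 to 0.65 for Hk1, from -0.39 to 0.020 for Pfkm, from -0.22 to 0.0017 for Pfkp, from -0.41 to 0.036 for Aldoa, from -0.19 to 0.24 for Aldoc, from -0.49 to 0.058 for Gapdh, from -0.37 to 0.21 for Pgk1 and from -0.41 to 0.24 for Pgam1. They also ran from -0.59 to 0.0096 for Eno1, from -0.82 to 0.34 for Ldhb, from -0.31 to 0.12 for Slc2a1, from -0.031 to 0.14 for Slc16a1, from -0.28 to 0.0995 for Cs, from -0.39 to 0.068 for Idh3a, from -0.36 to 0.20 for Idh3b and from -0.30 to 0.19 for Idh3g. They also ran from -0.30 to 0.13 for Ogdh, from -0.30 to 0.078 for Dlst, from -0.11 to 0.29 for Dld, from -0.037 to 0.36 for Sucla2, from -0.046 to 0.44 for Fh1, from -0.26 to 0.21 for Mdh1, from -0.16 to 0.27 for Mdh2 and from -0.14 to 0.095 for Pdha1. They also ran from -0.12 to 0.22 for Pdhb, from -0.19 to 0.078 for Dlat, from -0.21 to 0.31 for Mpc1, from -0.23 to 0.020 for Mpc2 and from -0.18 to 0.61 for Got1. Of the shares, left-out libraries turned the difference in percentage points for Hk1 (from -2.13 to 2.09), Pfkm (from -1.76 to 2.76), Aldoa (from -3.33 to 1.33), Ldha (from -3.94 to 1.82) and Mdh1 (from -4.32 to 0.93).

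No pairing by replicate number was seen, with correlations of -0.12, -0.085 and -0.034 between the deviations of same-numbered knockout and control libraries. Whether same-numbered libraries were handled together cannot be told from these values. With the number as a replicate block 6 genes passed, 1 higher and 5 lower, and no member did. Depth is unknown, and intervals with a median of 0.604 on the log2 scale to either side limit what 3 libraries per group can show.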

Other observations

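The pentose phosphate pathway branches from glycolysis at glucose-6-phosphate and supplies NADPH and ribose. Of 10 of its genes fixed for description 6 were found, all 6 were tested and none passed, with 4 negative and a median log2 difference of -0.071. Taldo1, the transaldolase gene, read 6.30, 6.60 and 5.37 FPKM in knockout, against 8.92, 9.70 and 7.04 FPKM in control. Its groups did not overlap, with knockout below control, and it did not pass (log2 difference -0.42 ± 0.22 SE, adjusted p = 0.90, limma). Taldo1 was the only 1 of the 6 without overlap, against 9.39% of all genes tested. Prps1, a phosphoribosyl pyrophosphate synthetase gene, read 8.57, 8.89 and 10.05 FPKM in knockout, against 4.39, 8.13 and 9.42 FPKM in control, and control 1 was the lowest library. G6pdx, which encodes the enzyme that opens the pathway, averaged 8.93 ± 1.73 FPKM in knockout and 9.60 ± 3.31 FPKM in control, and Rpia, the ribose-5-phosphate isomerase gene, averaged 1.97 ± 0.402 FPKM in knockout and 2.14 ± 0.126 FPKM in control. The cause of these values was not tested.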
